A study of Ovis aries with 40 samples.

Results

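The motile cilia genes of the developing sheep lung were taken by name from the count table: every gene whose symbol starts with DNAH, DNAI, DNALI, DNAAF, CFAP, RSPH or TEKT followed by a digit, together with FOXJ1, MCIDAS and TPPP3. Of 24478 genes, 58 matched, and 57 had a count of 10 or more in at least 2 of the 40 libraries. The gene left out was TEKT5, whose highest count was 4. All 57 passed the filter on low counts and were tested in every comparison. Bulk RNA-seq was available from proximal and distal lung of wildtype (WT) and CFTR-/- (CF) sheep at gestational days 65, 80, 100 and 120 as well as term (day 147), with 2 libraries in each of the 20 conditions. WT fetuses came from naturally bred American Romney sheep, and WT lambs at term were born naturally. CF animals were made by somatic cell nuclear transfer from 1 male fibroblast line in which exon 2 of CFTR had been targeted. The methods do not give the sex of the WT animals. The cloned origin, the shared male line and the genotype therefore cannot be told apart. Nor can sequencing depth before term, because the 16 WT libraries held 24670355 to 43700012 counts and the 16 CF libraries 85773994 to 103139483. At term the totals were 115937437 to 126749480 in the 4 WT libraries and 117316905 to 119451372 in the 4 CF libraries.

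Motile cilia cover the multiciliated cells of the airway epithelium and move mucus out of the lung. A differentiating cell first makes many basal bodies, a step switched on by GMNC and MCIDAS, and then builds an axoneme of doublet microtubules under the control of FOXJ1. Dynein arms on the doublets, put together in the cytoplasm by assembly factors, drive the beat, and radial spokes, the central apparatus and proteins inside the doublets shape it. In bulk tissue fewer ciliated cells and less RNA per ciliated cell cannot be told apart.

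Several facts of the series bear on all that follows. CFTR itself was at 11.02 to 43.8 normalised counts (CPM, counts scaled to library size by TMM, as everywhere below) in WT and 4.99 to 34.9 in CF libraries before term, and at 9.58 to 14.8 in WT and 3.65 to 5.14 in CF libraries at term. Both CF libraries lay below both WT libraries in each region at each of the 5 time points, by the smallest margin in distal lung on day 120 (10.9 and 5.80 against 11.03 and 13.3 CPM). The overlap of the ranges before term comes from pooling days. Proximal and distal libraries with the same genotype, day and number carry 1 animal label. Both WT day 100 animals have the same label, and so do WT day 65 replicate 2 and CF day 100 replicate 2, so p-values for those groups may rest on fewer animals than libraries. CF proximal day 120 replicate 2 stood apart from its partner across the transcriptome. The median size of the gap over all genes, whatever its sign, was 1.03 on the log2 scale. The libraries also differed in airway markers such as KRT5 of basal cells (57.7 against 1.01 CPM) and SCGB3A2 of secretory cells (3382 against 78.9 CPM). Ciliated-cell markers were found in all libraries, with 36 such genes summing to 67.0 to 552 CPM before term and 240 to 752 CPM at term.

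Per base of transcript, the members differed widely in level. TPPP3, which encodes a tubulin polymerization promoting protein, had the highest mean over the 40 libraries at 119 RPKM, that is reads scaled to library size and to transcript length. CFAP36 (35.4 RPKM), CFAP20 (30.5 RPKM), a microtubule inner protein, and the master regulator FOXJ1 (23.2 RPKM) followed. MCIDAS, the geminin-family coactivator that acts before FOXJ1, averaged 1.36 RPKM. Among radial spoke head genes RSPH9 averaged 12.5 and RSPH1 10.6 RPKM, and among assembly factors DNAAF5 averaged 11.9 and DNAAF2 4.70 RPKM. The tektins TEKT1 (6.72 RPKM) and TEKT2 (5.99 RPKM), filament proteins inside the doublets, were at a similar level. The heavy chains, the motors themselves, were the lowest group. DNAH9 averaged 1.54 and DNAH5 1.06 RPKM, both of the outer arm, while DNAH14 averaged 0.156 and DNAH8 0.0388 RPKM. The intermediate and light-intermediate chains lay between, with DNALI1 at 3.19 and DNAI2 at 2.25 RPKM.

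FOXJ1 (chromosome 11, 54492616-54495990, plus strand, Oar_v4.0) was present in every library from day 65. In WT proximal lung its normalised counts were 28.4 and 7.58 CPM on day 65, 19.3 and 45.9 on day 80, 43.0 and 40.1 on day 100, 49.2 and 32.7 on day 120, and 50.1 and 115.5 at term. WT distal lung gave 69.1 and 8.84 CPM on day 65, 24.9 and 43.9 on day 80, 44.1 and 46.9 on day 100, 18.9 and 65.0 on day 120, and 62.9 and 155 at term. Day 65 held the lowest WT value in each region and, in distal lung, also one of the higher ones, and the highest was at term in both regions. In CF proximal lung the values were 40.1 and 37.9, 69.5 and 42.9, 23.7 and 33.7, 25.1 and 129, and 47.7 and 105 CPM over the same time points. CF distal lung had 24.2 and 18.7, 18.0 and 20.2, 29.53 and 23.5, 33.0 and 27.1, and 43.6 and 144 CPM. Both term libraries lay above all earlier libraries of their course in WT proximal and CF distal lung, by a narrow margin in the former, and not in the other courses.

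MCIDAS (chromosome 16, 23972233-23981128, plus strand) followed another course. From day 65 to term its values were 4.74 and 0.824, 4.57 and 6.59, 7.49 and 3.23, 7.14 and 2.62, and 10.7 and 19.9 CPM in WT proximal lung. In WT distal lung they were 9.99 and 1.43, 4.22 and 5.77, 4.53 and 3.85, 3.10 and 7.54, and 13.7 and 19.52 CPM. Both WT term libraries lay above all earlier WT libraries in each region. CF proximal lung had 4.43 and 6.08, 6.47 and 5.23, 1.96 and 2.66, 2.14 and 6.68, and 1.57 and 2.85 CPM, and CF distal lung had 3.23 and 2.23, 2.19 and 1.91, 2.704 and 2.27, 3.46 and 1.76, and 1.65 and 3.83 CPM. No such step to term was seen in CF.

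TPPP3 (chromosome 14, 34250114-34253797, minus strand) was highest at term in 3 of the 4 courses, all but that of CF proximal lung. WT proximal lung went from 53.7 and 30.6 CPM on day 65 through 47.4 and 91.7, 128 and 97.7, and 137 and 114 CPM to 324 and 357 CPM at term. WT distal lung had 104 and 41.1, 62.2 and 89.1, 103 and 113, 105 and 143, and 301 and 402 CPM. In CF the course ended lower, with 53.2 and 49.6, 99.5 and 62.2, 47.5 and 82.1, 87.5 and 268, and 228 and 214 CPM in proximal lung and 43.3 and 51.1, 37.4 and 34.9, 62.9 and 53.9, 106 and 124, and 232 and 283 CPM in distal lung. All 4 WT term libraries lay above all 4 CF term libraries, a gap that did not pass the test in either region. Proximal and distal libraries of a genotype came from the same animals.

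**Figure D1:**
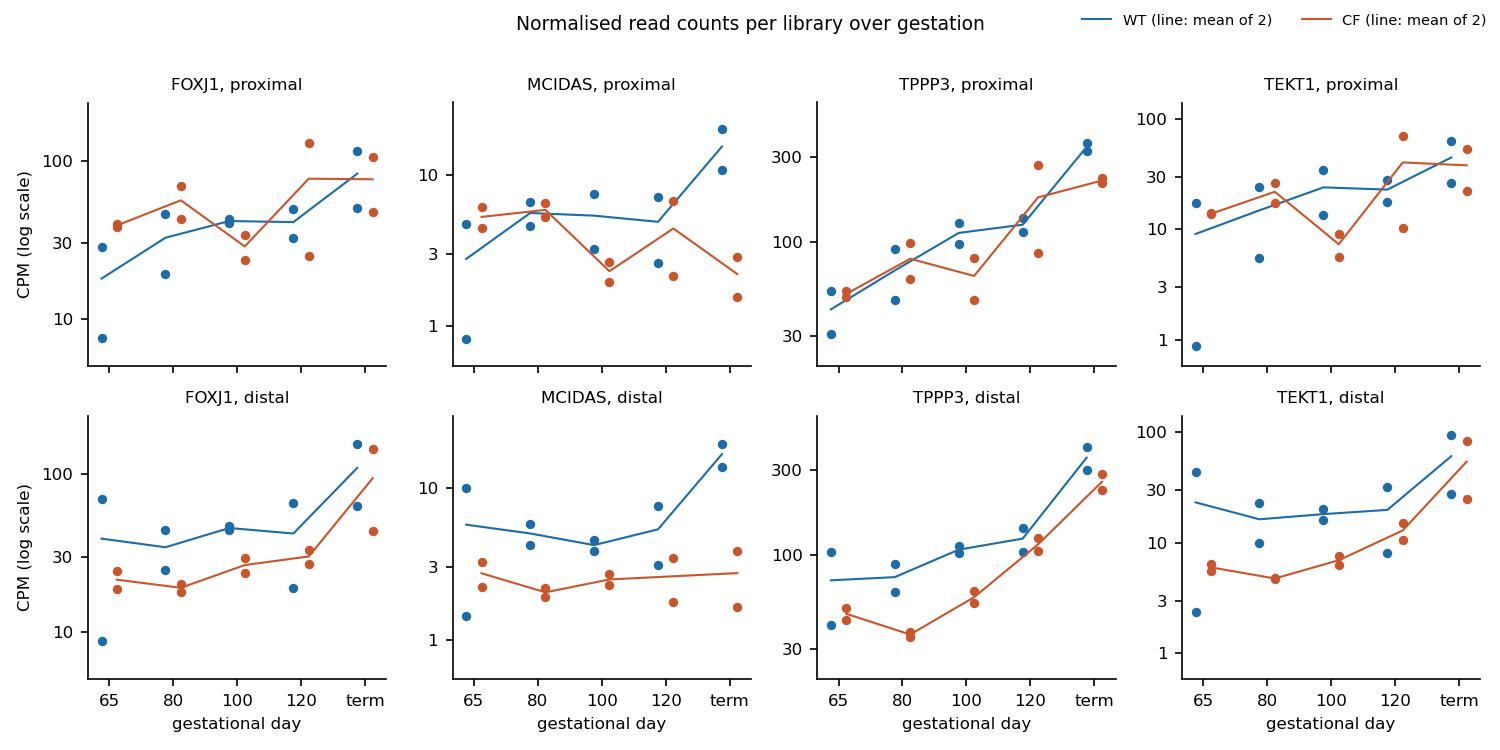
Normalised read counts (CPM, log scale) of FOXJ1, MCIDAS, TPPP3 and TEKT1 by gestational day in proximal (top) and distal (bottom) lung, with a point per library and a line through the mean of the 2 libraries, WT in blue and CF in orange. MCIDAS reached 10.7 to 19.9 CPM in the WT term libraries and 1.57 to 3.83 CPM in the CF term libraries, while the FOXJ1 and TEKT1 points of both genotypes overlapped there.

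Across the 40 libraries most members moved with FOXJ1. Spearman's correlation of log2 CPM with FOXJ1, given as a description over 40 libraries that share animals, depth classes and tissue makeup, was 0.8 or more for 29 of the 56 other members and had a median of 0.81. Its median over the 20486 genes compared was -0.007. The members nearest to FOXJ1 were CFAP161 (0.963) and CFAP45 (0.954), both proteins of the doublet wall, TEKT1 (0.953), RSPH1 (0.948), CFAP52 (0.943) and DNAI2 (0.941). By role, the intermediate and light-intermediate chains had the highest median (0.889, from 0.879 to 0.941), then the tektins (0.880), the CFAP genes (0.831, with 15 of 25 at 0.8 or more), the heavy chains (0.766, with 4 of 13), the radial spoke genes (0.746) and the assembly factors (0.5996). MCIDAS had 0.680 and TPPP3 0.818. Among genes outside the list, the 10 nearest were CATIP (0.959), CCDC113 (0.957), ROPN1 (0.957), ZMYND10 (0.954), a dynein assembly factor, STMND1 (0.952), DNAJB13 (0.947), a radial spoke protein, LOC101116286 (0.945), PPP1R32 (0.942), LRRC23 (0.941) and CAPSL (0.941).

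A small set of members did not share this pattern. The correlation was below 0.3 for 6 of them: DNAH8 (-0.238), DNAAF5 (-0.223), CFAP69 (-0.121), CFAP97 (0.026), DNAH17 (0.088) and CFAP44 (0.263). DNAAF2, CFAP20, CFAP44, CFAP69, CFAP97 and DNAAF5 also had narrow ranges, from 1.66-fold for DNAAF2 (14.4 to 23.9 CPM) to 3.83-fold for DNAAF5 (18.0 to 68.7 CPM). In contrast, TEKT1 ran from 0.879 to 93.3 CPM, a 106-fold range, and CFAP52 from 0.330 to 36.2 CPM, a 110-fold range. FOXJ1 itself covered a 20.5-fold range (7.58 to 155 CPM). DNAH8 was low, between 0 and 1.59 CPM, with a count of 10 or more in 34 of the 40 libraries and 129 at most.

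**Figure D2:**
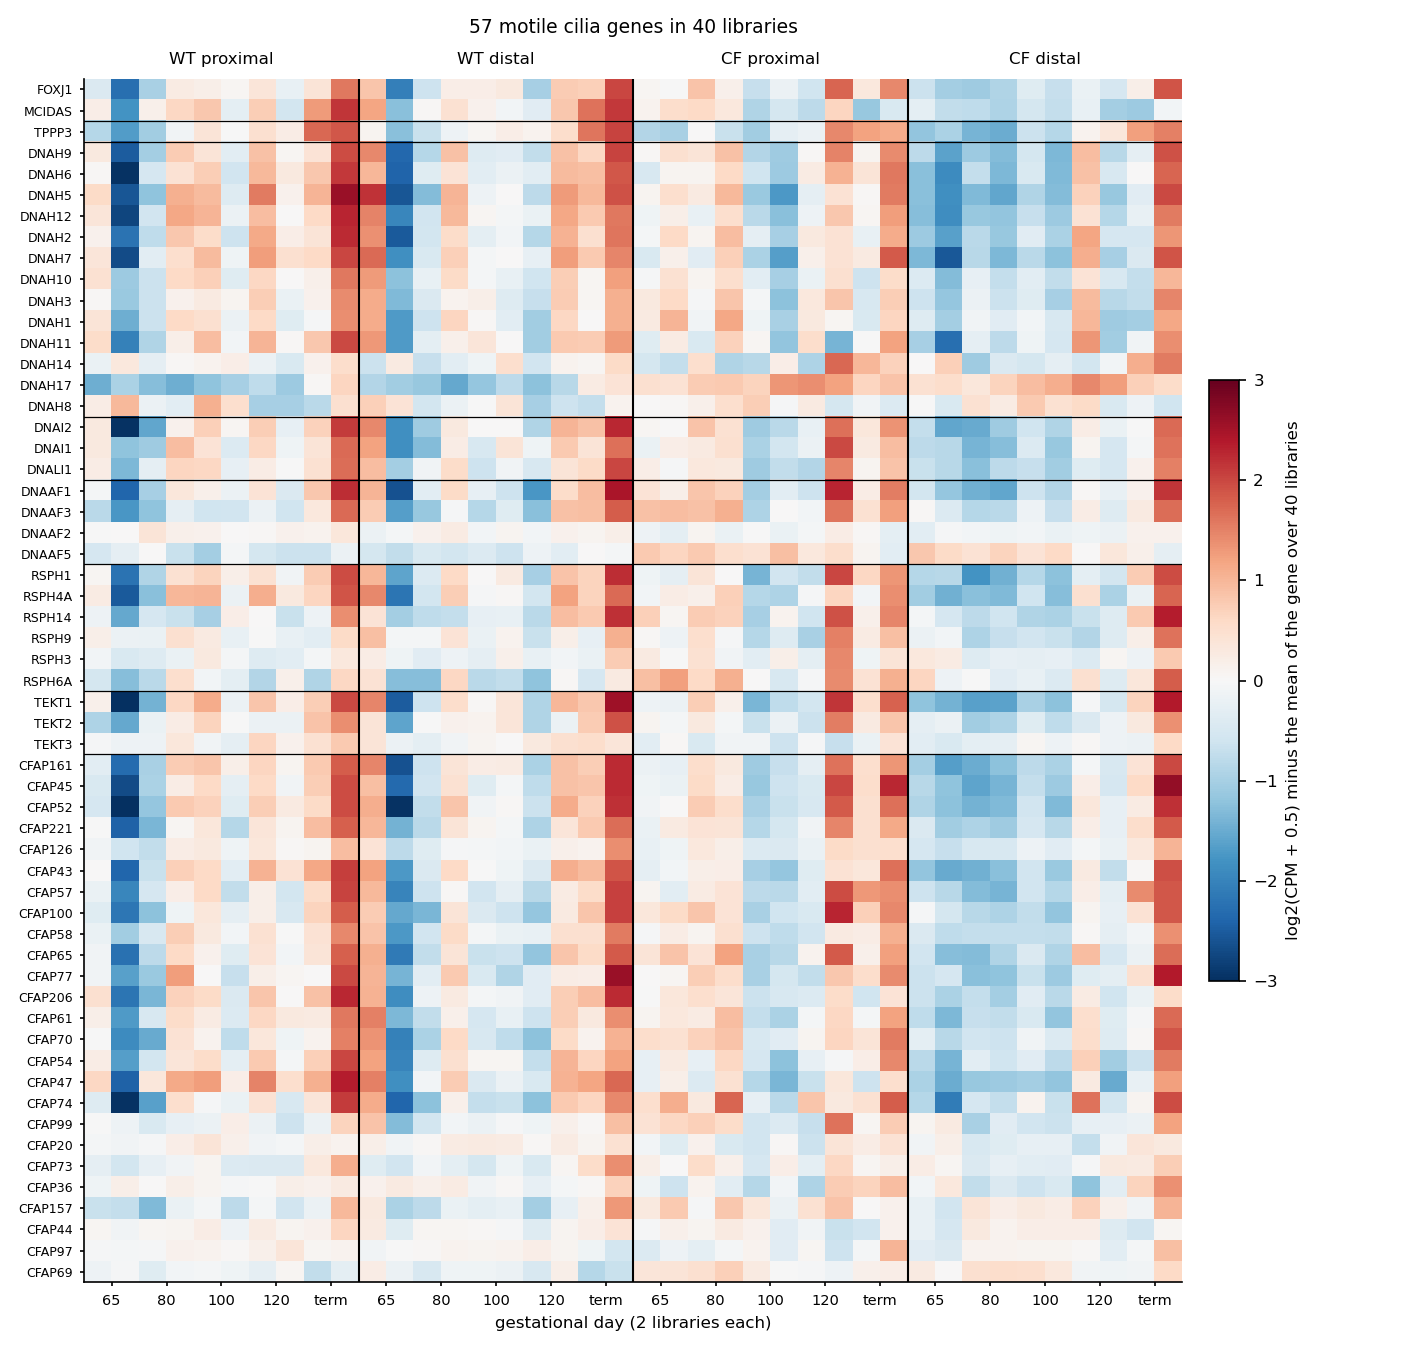
Level of each of the 57 members in each of the 40 libraries, as log2(CPM + 0.5) minus the gene's mean over the libraries, with colours capped at 3 in size, rows ordered by role and by correlation with FOXJ1, and libraries by genotype, region and gestational day. Most rows share their light and dark columns, whereas DNAH17 and DNAAF5 separate the CF from the WT libraries of each region before term, and at term DNAAF5 overlapped in both regions and DNAH17 in proximal lung.

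The shared columns mark single libraries as much as conditions. Over FOXJ1 and the 29 members most like it, the median log2 gap between the 2 replicates was 1 or more in size in 10 of the 20 conditions. It was 2.53 in WT proximal and 3.78 in WT distal lung on day 65, where replicate 1 was higher. In WT distal lung on that day DNAH5, for example, was at 55.8 and 1.59 CPM and TEKT1 at 43.8 and 2.36 CPM. Replicate 2 was higher at term, where the gap was -1.34 in WT proximal, -1.32 in WT distal, -1.15 in CF proximal and -1.81 in CF distal lung, and in CF proximal lung on day 120, where it was -1.81. In CF proximal lung on day 120, 28.5% of all genes were at least as far apart. The gap had the same sign in proximal and distal lung of the same animals in 4 of 10 genotype and day combinations. Markers of other airway cells moved with it. On day 65 in WT distal lung the median gap of the basal-cell markers was 3.83 and that of the secretory markers 2.29, and in CF distal lung at term they were -3.05 and -2.66. The part of the sampled airway in these gaps was not tested.

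The first comparison asks whether ciliary genes differed between proximal and distal lung. None of the 57 members was called over all 40 libraries, where a call takes an adjusted p of at most 0.05 by edgeR's quasi-likelihood test, Benjamini-Hochberg adjusted over all genes tested, together with a change of at least 0.58 on the log2 scale. At this limit 0.0144% of all genes were called in either direction. No member had an unadjusted p under 0.05, and DESeq2 called 0. Since members move together by library, the count of signs is a description and no support for a difference. Of 57 log2 fold changes 52 lay above 0, with a median of 0.21 against 0.008 for all genes. The median ran from 0.09 without CF day 120 replicate 2 to 0.35 without WT day 120 replicate 2. FOXJ1 had a log2 fold change of 0.18 ± 0.25 (SE), MCIDAS 0.20 ± 0.24 and TPPP3 0.10 ± 0.13, each adjusted p = 1 by edgeR. DNAI1 had the largest value, 0.47 ± 0.33, and DNAH8 the smallest, -0.39 ± 0.37. With the animal as a block, still 0 members were called. Here and below, counts of members called by DESeq2 or with a library left out are given without the share of all genes called in the same fit. A change in such a count may therefore not be particular to the members.

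By day, 0 members and 0% of all genes were called at each of the 5 time points, by edgeR, and DESeq2 called 0 members at each. The proximal minus distal median of the members was 0.04 on day 65, 0.74 on day 80, 0.14 on day 100, 0.30 on day 120 and -0.18 at term. With 1 replicate left out the median kept its sign on day 80 (0.67 to 0.74) and not on the other days. It went down to -0.11 without CF day 65 replicate 2, to -0.09 without WT day 100 replicate 1 and to -0.24 without CF day 120 replicate 2, and at term up to 0.02 without CF term replicate 2. On day 80, 54 of 57 members were above 0, 1 had an unadjusted p under 0.05 (10 with the animal block), and the basal-cell (1.64), secretory (1.13) and cartilage (0.70) medians were positive too. At term 16 of 57 were above 0, with medians of -1.80 for basal-cell and -0.84 for secretory markers. The unadjusted p was under 0.05 for 2 members on day 120 and for 0 on day 65, on day 100 and at term.

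The second question is how the ciliary genes changed through gestation. Between day 65 and day 120 in WT proximal lung, 2 members rose and 1 fell, while 9.17% of all genes rose and 7.54% fell, a larger share in each direction than among the members. TPPP3 rose by 1.57 ± 0.32 on the log2 scale (adjusted p = 0.00926, edgeR). TEKT2, at 3.999 and 2.44 CPM on day 65 and 7.05 and 7.07 CPM on day 120, rose by 1.12 ± 0.34 (adjusted p = 0.0482). DNAH8, a heavy chain best known from sperm, was at 0.658 and 1.46 CPM on day 65 and at 0 in both day 120 libraries, so that it was at least 24.7-fold higher on day 65 when day 120 is set to 3 counts over the group (adjusted p = 0.0207). In all, 48 of 57 log2 fold changes were above 0 and the median was 0.91, against -0.02 for all genes, with 0.28 without day 65 replicate 2 and 2.31 without day 65 replicate 1. The other regulators had 1.18 ± 0.62 (FOXJ1, adjusted p = 0.219) and 0.81 ± 0.77 (MCIDAS, adjusted p = 0.514). These calls rested on the libraries included: 15 members were called without WT proximal day 65 replicate 1, 0 without day 65 replicate 2 or day 120 replicate 1, and 1 without day 120 replicate 2.

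From day 120 to term in WT proximal lung 5 members rose and none fell, a share somewhat below that of all genes, of which 11.3% rose and 8.78% fell. They were TPPP3 (1.44 ± 0.32, adjusted p = 0.0117), TEKT2 (1.39 ± 0.34, adjusted p = 0.0168), DNAH17 (1.46 ± 0.40, adjusted p = 0.0262), CFAP73 (1.31 ± 0.37, adjusted p = 0.0294) and DNAH8, all by edgeR. TEKT2 reached 14.9 and 22.2 CPM. CFAP73, a homologue of an algal regulator of inner dynein arms, went from 3.03 and 3.01 to 5.36 and 9.57 CPM. DNAH8 went from 0 in both libraries to 0.0697 and 0.879 CPM (adjusted p = 0.0358, edgeR). The mean of the term libraries was 11.1-fold higher than 3 counts over the day 120 group. That fold rested on term replicate 2, with 105 counts against 8 in replicate 1. Over the whole list 55 of 57 were above 0 and the median was 0.96 against 0.06 for all genes, but the median was 0.19 without term replicate 2 and 1.48 without term replicate 1. FOXJ1 had 1.02 ± 0.60 (adjusted p = 0.252) and MCIDAS 1.64 ± 0.77 (adjusted p = 0.151). The count was 0 without day 120 replicate 2 or term replicate 2 and 1 without day 120 replicate 1.

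WT distal lung showed no call between days 65 and 120. By edgeR 0 members passed, with 15.9% of all genes called in either direction, 2 members at an unadjusted p under 0.05, and 1 lower by DESeq2. The median was -0.15, with 21 of 57 above 0, and it ran from -1.04 without day 120 replicate 2 to 2.08 without day 65 replicate 1. Without day 65 replicate 1, the library with high ciliary counts, 5 members were called, while leaving out either term library gave 1. From day 120 to term 3 members rose, a share below the 11.8% of all genes that rose (10.5% fell): DNAH17 (1.51 ± 0.36, adjusted p = 0.0175), TPPP3 (1.49 ± 0.39, adjusted p = 0.0241) and CFAP73 (1.30 ± 0.39, adjusted p = 0.0397, from 2.93 and 4.45 to 6.44 and 11.9 CPM). Again 55 of 57 were above 0, with a median of 1.02 against 0.04, which was 0.29 without term replicate 2 and 2.04 without day 120 replicate 2. FOXJ1 had 1.36 ± 0.87 (adjusted p = 0.276) and MCIDAS 1.62 ± 0.75 (adjusted p = 0.143). Without day 120 replicate 1 or term replicate 2 the count was 0, without day 120 replicate 2 it was 1, without term replicate 1 it was 9, and without either day 65 library it was 5. DNAH17, called in both regions at term, shares exon bases with PGS1, which was itself higher at term (0.93 ± 0.16 in proximal, 1.00 ± 0.13 in distal lung).

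CF proximal lung gave no member call in either interval. From day 65 to day 120 the tool counts were 0 by edgeR (2 with an unadjusted p under 0.05) and 2 by DESeq2, with 1.66% of all genes called in either direction. TPPP3 had 1.84 ± 0.52 (adjusted p = 0.136), FOXJ1 1.03 ± 0.69 (adjusted p = 0.536) and MCIDAS -0.21 ± 0.59 (adjusted p = 0.907). More members were called without CF proximal day 120 replicate 1, whose partner stood apart from it across the transcriptome. From day 120 to term 0 were called by edgeR and 0 by DESeq2, 0 had an unadjusted p under 0.05, and 0.356% of all genes were called. The members' medians were 0.37 and -0.05 in the 2 intervals, and both turned sign, the first to -0.36 and the second to 0.98, without CF proximal day 120 replicate 2. The FOXJ1 value for the later one was -0.05 ± 0.68, that of TPPP3 0.28 ± 0.50 and that of MCIDAS -1.03 ± 0.60.

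In CF distal lung more members were called at term than in any other time comparison by edgeR. From day 65 to day 120 only TPPP3 (1.32 ± 0.20, adjusted p = 0.00413) and DNAH17 (0.95 ± 0.26, adjusted p = 0.0458) rose by edgeR, a share below the 7.1% of all genes (5.01% fell), though 17 members had an unadjusted p under 0.05 and the median was 0.91 (0.32 without day 120 replicate 1, 1.17 without day 120 replicate 2). That count of calls was 10 without day 120 replicate 2, 5 or 6 without a term library, and 1 without any of the other libraries of that course. From day 120 to term 13 of 57 rose and none fell, a larger share than the 11.5% of all genes that rose (11.4% fell), with 23 members at an unadjusted p under 0.05. The median was 1.11, against -0.06 for all genes, and 53 of 57 were above 0. It rested on 1 library, being 0.06 without term replicate 2, and was 1.70 without term replicate 1.

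The 13 genes came from all roles except the intermediate chains and the assembly factors. FOXJ1 went from 33.0 and 27.1 to 43.6 and 144 CPM, a log2 rise of 1.62 ± 0.45 (adjusted p = 0.0338). TPPP3 rose by 1.16 ± 0.20 (adjusted p = 0.00729). Of 6 radial spoke genes 3 rose: RSPH14 from 0.421 and 0.615 to 2.00 and 6.96 CPM (3.10 ± 0.65, adjusted p = 0.0138), RSPH1 from 13.0 and 10.7 to 27.3 and 63.1 CPM (1.92 ± 0.38, adjusted p = 0.0122) and RSPH9 from 8.32 and 11.8 to 17.8 and 49.3 CPM (1.73 ± 0.42, adjusted p = 0.0214). The tektins TEKT1 (15.2 and 10.6 to 24.9 and 82.9 CPM, 2.05 ± 0.48) and TEKT2 (5.88 and 7.25 to 10.1 and 21.6 CPM, 1.26 ± 0.38) rose as well. Among the CFAP genes these were CFAP77 (2.49 ± 0.65), CFAP45 (2.08 ± 0.57), CFAP161 (1.78 ± 0.55), CFAP57 (1.77 ± 0.35), which takes part in inner-arm placement, and CFAP36 (1.77 ± 0.33, from 18.4 and 34.4 to 68.3 and 111 CPM). DNAH14 (1.92 ± 0.47, from 1.34 and 2.03 to 5.26 and 7.50 CPM) was the sole heavy chain called, by edgeR, of 13. MCIDAS had a log2 fold change of 0.05 ± 0.50 (adjusted p = 0.957).

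This count depended on single libraries. With CF distal term replicate 1, the library with the lower ciliary counts, left out, 31 members were called. Without day 120 replicate 1 the count was 2 and without term replicate 2 it was 1. DESeq2 called 22 higher and 1 lower. Other airway genes moved in the same interval: 5 of 9 secretory markers tested, among them SCGB1A1 (4.498 ± 0.70), and 2 of 9 basal-cell markers, KRT15 (4.80 ± 1.399) and S100A2 (2.83 ± 0.20), were higher. Their part in the members' rise was not tested. Outside the list 13 of 54 other axoneme genes rose and 1 fell, led by TCTEX1D4 (3.12 ± 0.77), as did 10 of 34 ciliated-cell markers, led by CCDC113 (2.51 ± 0.79). Of the intraflagellar transport genes, which also serve the primary cilium of other cells, 4 of 26 rose (IFT57 by 1.19 ± 0.31) and 1, the kinesin subunit KIF3B, fell by 1.93 ± 0.49 on the log2 scale. The share of all genes in this interval was 11.5% rising and 11.4% falling.

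**Figure D3:**
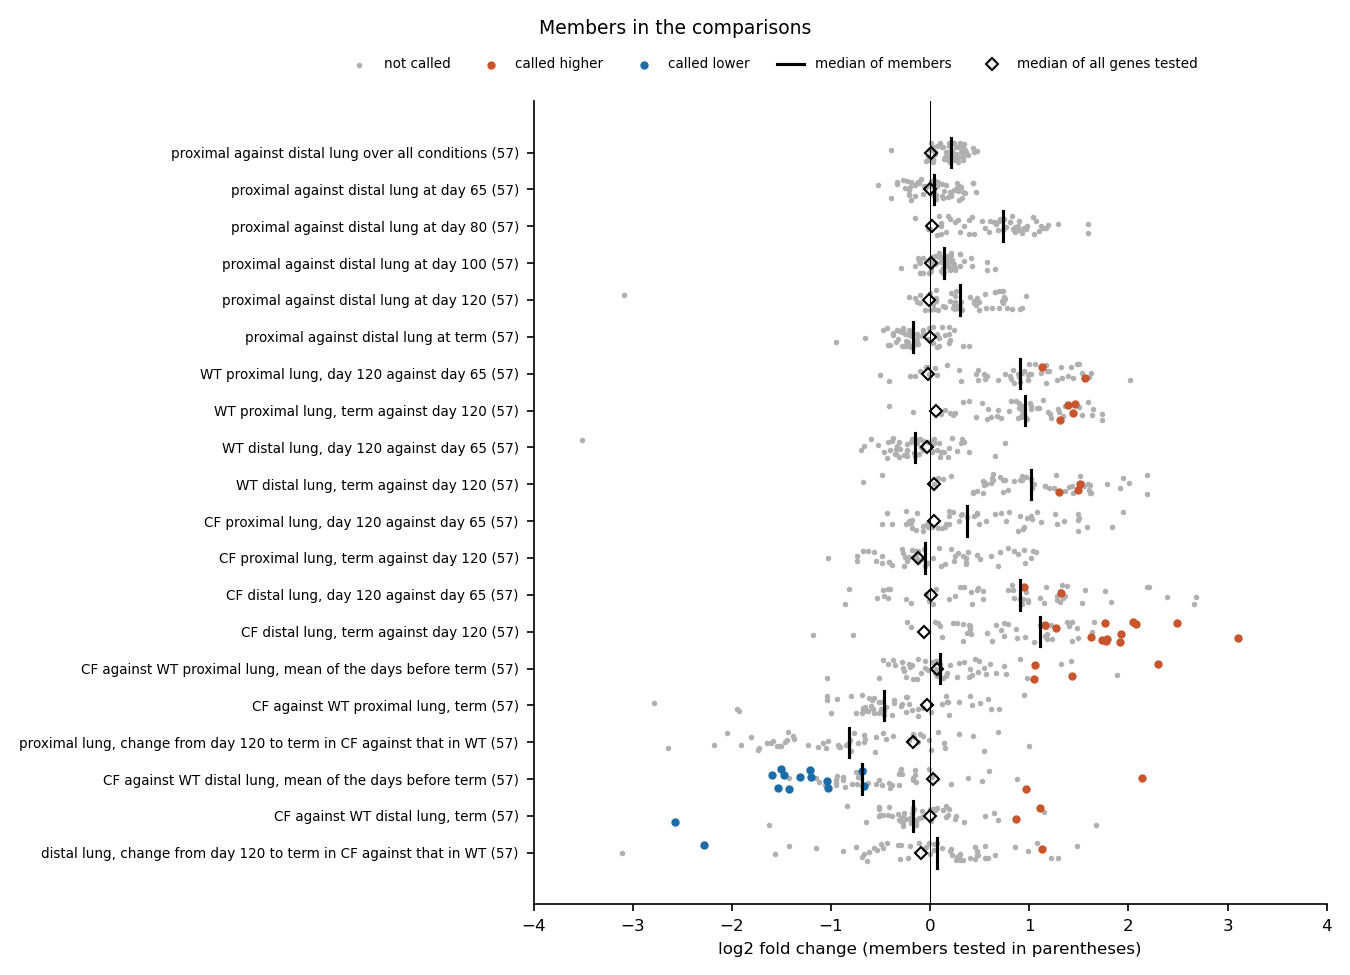
Log2 fold change of each member in the comparisons of time, region and genotype, with called values marked, on an axis that stops at 4 in size and leaves out 3 values of DNAH8. Most members lie above 0 from day 120 to term in WT and in CF distal lung, while in CF against WT before term DNAH17 is the highest member in both regions (2.29 in proximal and 2.14 in distal lung).

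The third question is how CF differed from WT. Before term, averaged over days 65 to 120, 4 members were higher and none lower in CF proximal lung, where 10.9% of all genes were higher and 3.21% lower, so the members' share was no larger than that of genes at large. DNAH17, a heavy chain of outer arms described mainly in sperm flagella, had the largest change in both regions. Over 8 WT proximal libraries it ran from 1.47 to 2.702 CPM and over 8 CF libraries from 6.84 to 13.8 CPM, a log2 difference of 2.29 ± 0.18 (adjusted p = 1.4e-05, edgeR). In distal lung the ranges were 1.37 to 2.65 and 6.43 to 14.4 CPM (2.14 ± 0.15, adjusted p = 3.01e-07). The ranges of the genotypes did not overlap in either region. The share of all genes separated in this way over the days before term was not counted. DNAH17 lies on chromosome 11 at 52620827-52718367, plus strand, and shares exon bases with PGS1, which was not called in CF against WT (0.17 ± 0.13 in proximal, 0.15 ± 0.10 in distal lung before term).

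DNAAF5 (chromosome 24, 41572886-41596889, minus strand), needed to preassemble dynein arms, was likewise higher in CF in both regions before term. In proximal lung before term it was at 18.0 to 37.0 CPM in WT and 45.9 to 68.7 CPM in CF (1.06 ± 0.16, adjusted p = 7.06e-04, edgeR). In distal lung it was at 21.8 to 32.7 CPM in WT and 36.9 to 64.6 CPM in CF (0.97 ± 0.09, adjusted p = 3.68e-06). Again no CF library before term lay within the WT range of its region, with the share of all genes likewise not counted. At term neither DNAAF5 nor DNAH17 was called. The log2 differences were 0.29 ± 0.32 in proximal and 4.49e-05 ± 0.18 in distal lung for DNAAF5. For DNAH17 they were 0.40 ± 0.35 and 0.34 ± 0.28.

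DNAAF3 and CFAP157 were called in proximal and not in distal lung, and the difference between regions was not tested. DNAAF3, a further assembly factor, was at 3.604 and 1.65, 2.64 and 5.54, 4.31 and 4.32, and 5.87 and 4.28 CPM in WT and at 12.7 and 13.3, 12.7 and 14.7, 3.31 and 6.73, and 6.34 and 21.5 CPM in CF on days 65, 80, 100 and 120 (1.43 ± 0.31, adjusted p = 0.00652, edgeR). The genotypes were apart on days 65, 80 and 120 and overlapped on day 100. CFAP157, a microtubule-binding protein, had 3.03 and 2.91, 1.74 and 4.43, 4.91 and 2.74, and 4.93 and 3.29 CPM in WT and 6.41 and 9.16, 4.98 and 9.41, 6.62 and 4.49, and 7.27 and 9.66 CPM in CF (1.04 ± 0.27, adjusted p = 0.0138). These 4 calls held in each of the 20 fits that left out 1 library. The median over the list was 0.10 against 0.07 for all genes, and it ran from -0.08 without CF proximal day 120 replicate 2 to 0.53 without WT proximal day 65 replicate 1. It averages days on which the difference had opposite signs, given by day below. FOXJ1 had 0.57 ± 0.36 (adjusted p = 0.289), MCIDAS -0.10 ± 0.37 (adjusted p = 0.908) and TPPP3 0.05 ± 0.23 (adjusted p = 0.924). The count became 9 without WT proximal day 65 replicate 1 and 10 without CF proximal day 120 replicate 1. In the same comparison 3 of 9 basal-cell markers (median 1.30) and 8 of 8 smooth muscle markers were higher in CF, and their part was not tested.

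**Figure D4:**
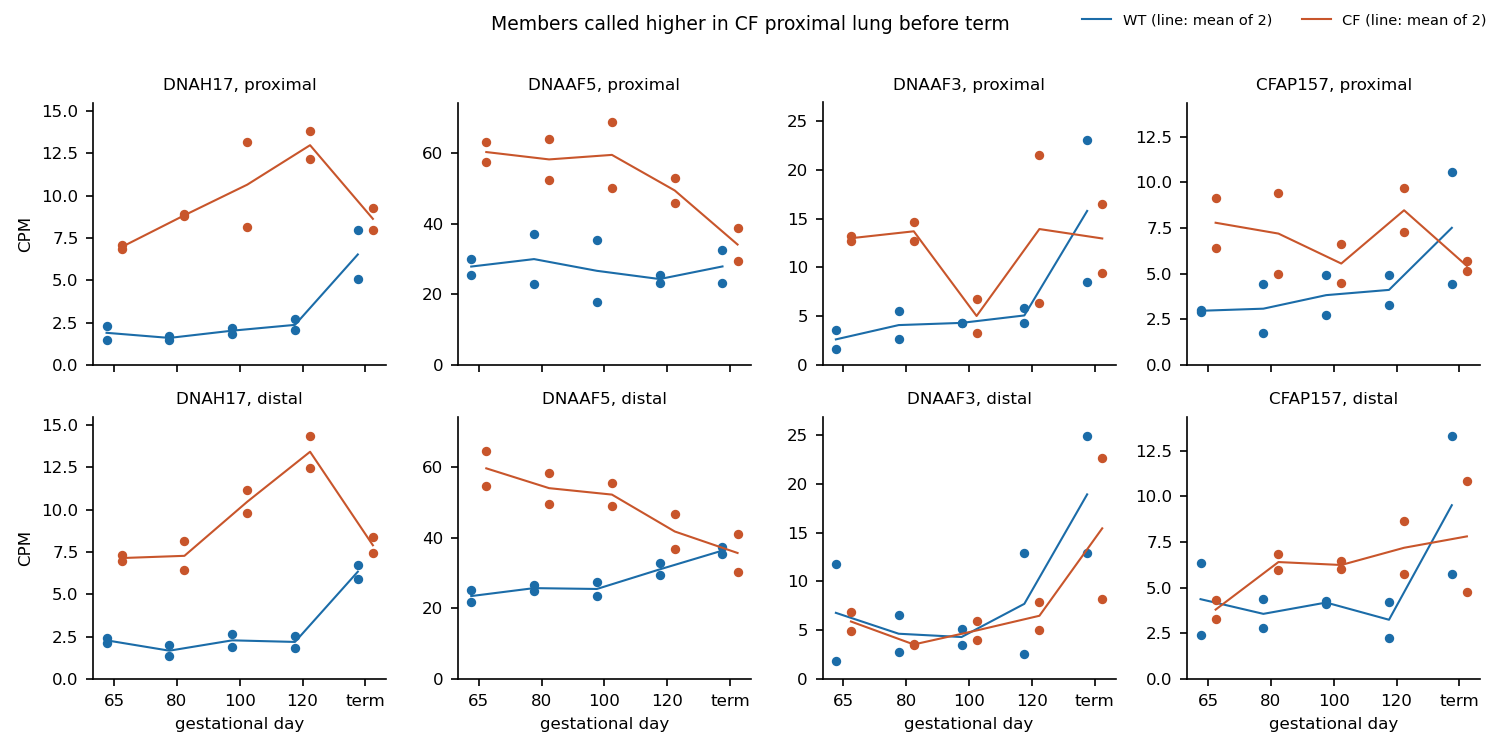
Normalised read counts (CPM, linear axis from 0) of DNAH17, DNAAF5, DNAAF3 and CFAP157 by gestational day in proximal (top) and distal (bottom) lung, with a point per library and a line through the mean of 2, WT in blue and CF in orange. DNAH17 and DNAAF5 were higher in every CF library than in every WT library of the region before term, while at term DNAH17 was at 5.07 to 7.99 CPM in WT and 7.42 to 9.30 CPM in CF.

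In CF distal lung most of the list lay below WT. Before term 12 members were lower and 2, DNAH17 and DNAAF5, higher, where 6.48% of all genes were lower and 11.5% higher, so the lower calls exceeded the background share and the higher calls did not. The median was -0.68, against 0.03 for all genes (-0.88 without WT distal day 65 replicate 2, -0.19 without replicate 1), and 24 members had an unadjusted p under 0.05. The 12 lower genes were the heavy chains DNAH5 (-1.59 ± 0.58, adjusted p = 0.0492), DNAH12 (-1.50 ± 0.47) and DNAH7 (-1.47 ± 0.53), the light-intermediate chain DNALI1 (-1.04 ± 0.36), the spoke head genes RSPH4A (-1.31 ± 0.48), RSPH1 (-1.21 ± 0.37) and RSPH9 (-0.68 ± 0.24), the central-apparatus gene CFAP47 (-1.53 ± 0.49), the dynein tether CFAP43 (-1.21 ± 0.39), TEKT1 (-1.42 ± 0.47), TPPP3 (-0.66 ± 0.16, adjusted p = 0.0047) and MCIDAS (-1.03 ± 0.33, adjusted p = 0.0291). FOXJ1 had -0.74 ± 0.37 (adjusted p = 0.147). DNAH5 shows what lay behind the values: in WT distal lung it was at 55.8 and 1.59, 4.55 and 24.9, 10.7 and 12.1, and 6.73 and 29.7 CPM, and in CF distal lung at 4.68 and 2.97, 4.48 and 3.70, 6.11 and 4.53, and 19.7 and 5.14 CPM. The genotypes were apart on days 80 and 100, on day 80 by a narrow margin (4.55 CPM in WT against 4.48 CPM in CF), and overlapped on days 65 and 120.

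The number of lower genes depended on single libraries and days. Without day 100, where the 2 WT libraries carry 1 animal label, 0 members were lower and 2 higher, and with the 2 WT day 100 libraries summed to 1 it was 5 lower. Leaving out WT distal day 65 replicate 1 gave 0 lower and 3 higher, and leaving out day 65 replicate 2 gave 28 lower. Leaving out WT distal day 80 replicate 2 or day 120 replicate 2 gave 1 lower, and leaving out both libraries that share a label (WT day 65 replicate 2 and CF day 100 replicate 2) gave 19 lower. Without either WT distal day 100 library 5 or 6 were lower, and without any of the CF distal day 65, day 80 or day 100 libraries or day 120 replicate 2 the number was 2 to 7. The MCIDAS call was lost in 10 of the 20 fits that left out 1 library. DNAH17 and DNAAF5 were called in all of these. The summing of libraries was planned, and the fits without day 100 and without the shared label were chosen after seeing the data. Basal-cell markers moved with the members (median -1.48, 3 of 9 lower, KRT5 by -3.45 ± 0.78), as did secretory markers (median -0.88, 2 of 11 lower). Summed over 9 basal-cell markers, WT distal libraries before term ran from 29.53 to 122 CPM and CF from 39.3 to 89.6 CPM, and no marker of the list was at 0 throughout. Their part in the result was not tested. Outside the list 14 of 54 axoneme genes were lower and 2 higher (median -0.78), and 12 of 35 ciliated-cell markers were lower and 1 higher (median -1.069).

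Read day by day, the proximal median of the members differed in sign between days. The 2 WT proximal libraries of day 65 were themselves 2.53 apart on the log2 scale in the members most like FOXJ1. Those of day 100 carry 1 animal label. On day 65 the members' median CF minus WT was 1.37, with both CF libraries above both WT libraries for 23 members and below for 4, where 33.9% of all genes lay above and 25.6% below. On day 80 it was 0.59, with 17 above and 2 below (26.4% and 21.3% of all genes). On both days the members' share above was near that of all genes. On day 100 it was -0.78, with 3 above and 36 below (24.5% and 21.0% of all genes). On day 120 it was 0.28, with 7 above and 6 below (19.6% and 16.9% of all genes), and at term -0.37, with 4 above and 9 below (24.5% and 29.6% of all genes). In distal lung the medians were -0.33, -0.80, -0.61, -0.12 and -0.29 from day 65 to term. On day 80, 6 members lay above and 32 below (34.4% and 29.9% of all genes), and on day 100, 8 above and 36 below (37.0% and 32.0%). On day 65 there were 4 above and 4 below (28.1% and 21.1%), on day 120, 4 above and 6 below (23.7% and 19.6%), and at term 5 above and 4 below (23.0% and 25.6%). Differences by single day were not tested.

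At term MCIDAS was lower in CF distal lung, while few axonemal genes were called. MCIDAS was at 10.7 and 19.9 CPM in WT proximal and 13.7 and 19.52 CPM in WT distal lung, and at 1.57 and 2.85 and 1.65 and 3.83 CPM in CF. The 4 WT libraries lay above the 4 CF libraries, but the proximal and distal libraries of a genotype came from the same animals. The share of all genes separated in this way was not counted. The log2 difference was -2.58 ± 0.69 in distal lung (adjusted p = 0.0229, edgeR) and -2.79 ± 0.79 in proximal lung (adjusted p = 0.0540), which missed the limit by edgeR and passed it by DESeq2. Across the other settings the adjusted p ran from 0.00112 to 0.106 in distal and from 0.00311 to 0.282 in proximal lung. FOXJ1, in contrast, was at 50.1 and 115.5, 62.9 and 155, 47.7 and 105, and 43.6 and 144 CPM in WT proximal, WT distal, CF proximal and CF distal lung, with differences of -0.12 ± 0.71 (adjusted p = 0.957) and -0.20 ± 0.73 (adjusted p = 0.895). TPPP3 had -0.62 ± 0.46 (adjusted p = 0.502) and -0.42 ± 0.31 (adjusted p = 0.387).

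No member was called in proximal lung at term by edgeR, with 6.08% of all genes called in either direction, 3 members at an unadjusted p under 0.05, and 1 higher and 1 lower by DESeq2. The median was -0.47 against -0.03, and turned to 0.29 without WT proximal term replicate 2 and was -0.98 without CF proximal term replicate 2. A call of 1 member, MCIDAS, was made when any of WT proximal day 65 replicate 1 or 2 or CF proximal day 120 replicate 1 or 2 was left out. In distal lung MCIDAS was lower and CFAP69 and CFAP97 were higher, a share below that of all genes, of which 7.23% were lower and 7.16% higher. CFAP69, known from sperm and olfactory cilia, was at 9.71 and 11.1 CPM in WT distal and 16.7 and 27.3 CPM in CF distal lung (1.10 ± 0.26, adjusted p = 0.0113), and at 10.6 and 14.6 against 19.9 and 20.7 CPM in proximal lung, where it was not called. CFAP97 was at 70.6 and 52.4 CPM in WT distal and 73.7 and 146 CPM in CF distal lung (0.86 ± 0.24, adjusted p = 0.0258). The distal median was -0.17 against 0 for all genes, with -1.196 without CF and 0.49 without WT distal term replicate 2. The MCIDAS call was lost without WT distal term replicate 2 or either CF distal term library, and the count was 1 without WT distal term replicate 2 and 0 without CF distal term replicate 2.

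Genes outside the members were taken from a list of multiciliation genes, some of which also act in dividing cells. In proximal lung 4 of 23 tested were lower in CF at term, and in distal lung 7 were lower and 1, JAZF1, higher (0.85 ± 0.19). Of all genes 6.08% were called in either direction in proximal lung, and 7.23% were lower and 7.16% higher in distal lung. The lower genes included STIL, PLK4 and CDK1 in both regions and TFDP1 in distal lung, given below. GMNC, which acts before MCIDAS, was at 6.53 and 8.77 CPM in WT proximal and 0.466 and 1.00 CPM in CF proximal lung (-3.38 ± 0.81, adjusted p = 0.0258, edgeR), and at 6.51 and 4.75 against 1.01 and 0.803 CPM in distal lung (-2.60 ± 0.66, adjusted p = 0.0176). CDC20B, the host of a multiciliation microRNA locus and itself needed for centriole release, was at 25.04 and 49.8 against 1.57 and 9.20 CPM (-2.80 ± 0.93, adjusted p = 0.0947) and at 28.0 and 47.0 against 2.19 and 9.79 CPM (-2.62 ± 0.81, adjusted p = 0.0411). CCNO, a cyclin of centriole amplification, was at 8.22 and 15.1 against 1.86 and 6.16 CPM (-1.54 ± 0.81, adjusted p = 0.315) and at 12.7 and 19.8 against 3.502 and 7.44 CPM (-1.55 ± 0.47, adjusted p = 0.0376). For GMNC and CDC20B all WT term libraries lay above all CF term libraries, and the same held for CCNO. Here too each animal gave a proximal and a distal library.

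FOXN4, a transcription factor of ciliating cells, was at 4.88, 12.1, 5.63 and 9.91 CPM in WT and 0.796, 2.05, 0.654 and 2.47 CPM in CF, and was not called (-2.58 ± 0.91, adjusted p = 0.116, and -2.29 ± 0.84, adjusted p = 0.0784). TP73 overlapped between the genotypes, at 5.89, 10.5, 7.78 and 10.9 CPM in WT and 4.67, 10.8, 2.81 and 12.5 CPM in CF. The other called genes, STIL (-2.33 ± 0.34 and -1.84 ± 0.36), PLK4 (-1.56 ± 0.25 and -1.62 ± 0.17), CDK1 (-2.32 ± 0.54 and -2.46 ± 0.39) and TFDP1 (-1.33 ± 0.31, distal alone), act in the centriole or cell cycle of dividing cells as well. Proliferation genes moved with them: 12 of 12 were lower in proximal and 11 of 12 in distal lung (medians -2.44 and -2.27), and their summed level was 190 to 395 CPM in WT and 50.6 to 69.6 CPM in CF at term. The share of all genes was 6.08% called in either direction in proximal lung and 7.23% lower in distal lung. CDK1 belongs to both lists. The part of proliferation in the values of MCIDAS and GMNC was not tested.

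**Figure D5:**
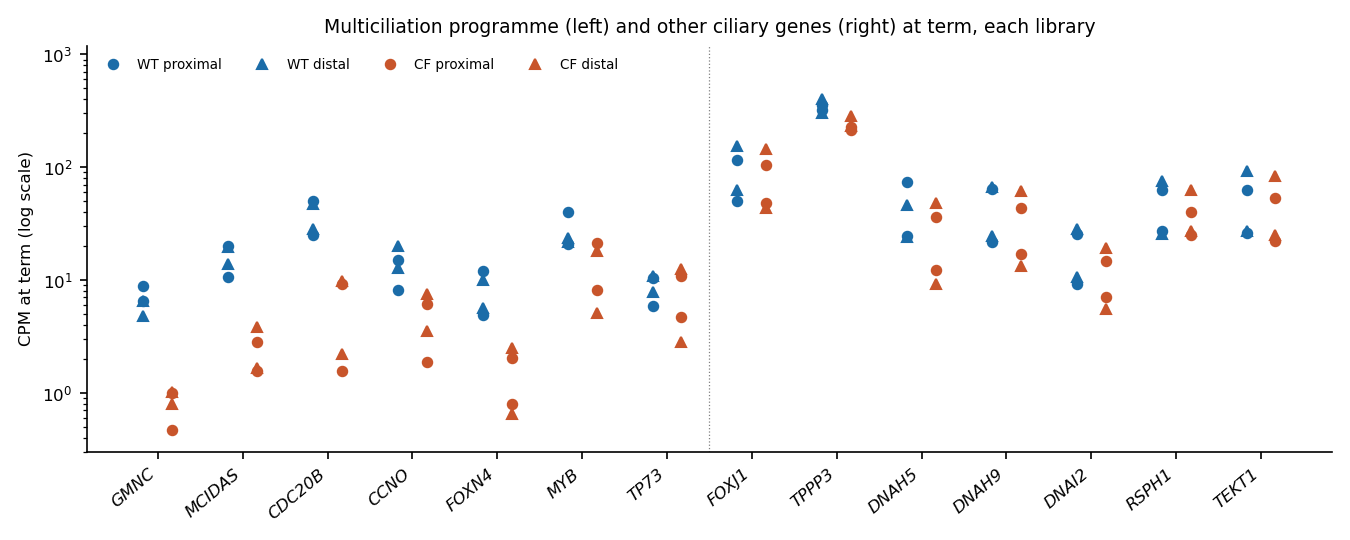
Normalised read counts (CPM, log scale) of multiciliation genes (left of the dotted line) and other ciliary genes (right) in the 8 term libraries, circles for proximal and triangles for distal lung, WT in blue and CF in orange. GMNC, MCIDAS, CDC20B, CCNO and FOXN4 were lower in each CF library than in each WT library, whereas the points of MYB, TP73 and FOXJ1 overlapped and those of TPPP3 did not (301 to 402 CPM in WT, 214 to 283 CPM in CF). Each animal gave a proximal and a distal library.

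The change from day 120 to term was set against that in WT within 1 fit per region. In proximal lung 0 members were called by edgeR (5 with an unadjusted p under 0.05, 2 lower by DESeq2), with 1.78% of all genes called in either direction. The median was -0.82 against -0.17 for all genes, with -1.55 without CF proximal term replicate 2 and 0.08 without CF proximal day 120 replicate 2. FOXJ1 had -1.03 ± 1.01, TPPP3 -1.13 ± 0.65 and MCIDAS -2.64 ± 1.071 (adjusted p = 0.249). The count was 8 without CF proximal day 120 replicate 1, 3 without day 120 replicate 2, and 1 without WT or CF proximal term replicate 1. In distal lung the change of DNAH17 was lower in CF than in WT (-2.28 ± 0.40, adjusted p = 0.00462, edgeR) and that of CFAP97 higher (1.12 ± 0.34, adjusted p = 0.0494), with 5.1% of all genes lower and 4.21% higher. DNAH17 went from 1.82 and 2.57 to 5.93 and 6.76 CPM in WT distal lung and from 14.4 and 12.5 to 8.39 and 7.42 CPM in CF distal lung. The DNAH17 call held with each library left out, that of CFAP97 was lost in 19 of 20 such fits, and the count was 4 without CF distal term replicate 1 and 1 in most others. The distal median was 0.07 against -0.09, with -0.96 without CF and 0.62 without WT distal term replicate 2. MCIDAS had -1.57 ± 0.94 (adjusted p = 0.318), FOXJ1 0.26 ± 1.04 and TPPP3 -0.33 ± 0.44 there. The difference in MCIDAS at term between genotypes was not accompanied by a called difference in its change from day 120.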

How the data were processed

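Paired reads of 100 bp from oligo dT libraries were aligned by the authors with STAR to Oar_v4.0 (2.7.0e_0320 in the methods, 2.6 in the submitters' processing notes) and assigned to genes with featureCounts 1.6.3. The deposited values are raw counts per gene, not normalized and with replicates kept apart. Annotation release, strand setting and treatment of mates are not given in the sources used here. Of counts from 1 to 20, 69.2% to 85.8% were even, so a count may not be 1 fragment and no counting intervals are given. A further table of 20 columns, identical to the CF columns, was not used. Some members share exon bases with a neighbour (RSPH1, CFAP57 and DNAH17 among those named), and without a stated strand setting such reads may belong to either gene.

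Tests were run with edgeR 4.0.16 on limma 3.58.1 and with DESeq2 1.42.0 under R 4.3.3, and summaries and plots made with Python 3.11.15 (pandas 2.3.3, NumPy 2.4.6, SciPy 1.17.1, matplotlib 3.10.9). Genes were kept by filterByExpr (count minimum 10, total minimum 15) and scaled by TMM (factors 0.751 to 1.19). Each fit had 1 mean per condition: 40 libraries for region, 10 for each time course, 20 of a region for genotype. Tests were quasi-likelihood F tests, and SE is the log2 fold change divided by the square root of F. A call needed an adjusted p of 0.05 or less (Benjamini-Hochberg) and 0.58 or more in size. The study used 0.001, which was an alternative. Log2 CPM used a prior count of 0.5. Scripts were tested on simulated data.

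The members and the other gene lists were chosen with earlier results of these data known. Named were FOXJ1, MCIDAS and TPPP3, up to 10 called members per direction, the 2 most abundant of each role, the extremes of a comparison, up to 3 called genes of another list and the 10 genes nearest to FOXJ1. Across genotypes and days the replicate number was taken as a name only. Proximal and distal partners carry 1 animal label each, and their deviations from the condition means correlated between -0.0484 and 0.498 (median 0.172, above 0.1 in 6 of 10 pairs). The animal label pairs them. There were 18 labels, 2 of them on more than 1 genotype, day and replicate.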

Additional observations from a re-analysis of the deposited data

Results flagged for a closer look

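In distal lung the change from day 120 to term differed between CF and WT for 2 members by the test of the difference itself. Of all genes 5.1% were lower and 4.21% higher there, so the members' share was no larger than that of genes at large. DNAH17 had a difference of -2.28 on the log2 scale (SE 0.40, adjusted p = 0.00462 by edgeR), rising in WT and being lower at term than on day 120 in both CF libraries. CFAP97 had a difference of 1.12 (SE 0.34, adjusted p = 0.0494), at 88.7 and 81.5 CPM on day 120 and 70.6 and 52.4 CPM at term in WT, and at 78.9 and 61.7 CPM and then 73.7 and 146 CPM in CF. The high CFAP97 value at term lies in CF distal replicate 2, and CF proximal replicate 2 of the same animal label was at 157 CPM. The CFAP97 call was lost in most fits that left out 1 library, while the DNAH17 call held in all of them.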

How the results depend on the processing

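Counts of called members under other settings follow, with the reported count first. At an adjusted p of 0.001 they fell from 3 to 0 (WT proximal lung, day 120 against day 65), 5 to 0 (WT proximal, term against day 120), 3 to 0 (WT distal, term against day 120), 2 to 0 and 13 to 0 (CF distal, the 2 intervals), 4 to 2 and 14 to 2 (CF against WT before term, proximal and distal), 3 to 0 (CF against WT, distal, term) and 2 to 0 (distal difference in change). DESeq2 gave 1 for 0 (WT distal, day 120 against day 65), 6 for 3 (WT distal, term), 2 for 0 (CF proximal, day 120 against day 65), 8 for 2 and 23 for 13 (CF distal), 2 for 0 (CF against WT, proximal, term), 2 for 0 and 4 for 2 (difference in change, proximal and distal). The bias-adjusted quasi-likelihood fit gave 1 for 3 (WT proximal, day 120 against day 65) and 1 for 0 in proximal lung at term and in the proximal difference in change. Without the filter the CF distal count for day 120 against day 65 was 1. With both WT day 100 libraries summed it was 7 for 14 (CF against WT, distal, before term) and 1 for 2 (distal difference in change), and thinning to equal depth gave 1 for the latter. Days 65, 80 and 120 alone, an alternative chosen after seeing the data, gave 2 for 14.

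With the replicate number as a block, where the number is a name only, the count was 1 for 0 (WT distal, day 120 against day 65) and 5 for 3 (CF against WT, distal, term). With the animal as a block for region it stayed at 0. Same-numbered libraries of different conditions had correlations of -0.351 to 0.511 (median 0.0067, 90 pairs).

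Leaving out each library in turn gave 0 to 0 for region, 0 to 15 and 0 to 6 in WT proximal, 0 to 5 and 0 to 9 in WT distal, 0 to 16 and 0 to 0 in CF proximal, 1 to 10 and 1 to 31 in CF distal lung (day 120 against day 65, then term against day 120). For CF against WT it gave 4 to 10 and 0 to 1 in proximal and 3 to 30 and 0 to 3 in distal lung (before term, then term), and 0 to 8 and 1 to 4 for the difference in change. Of the values of single named genes under an alternative, 311 lost a call, 16 gained one and 0 changed sign as a call. With 2 libraries a group and WT depth before term below that of CF, a missed call is no sign of equal levels, above all for low genes such as DNAH8.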

Other observations

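The ciliary genes outside the name rule were followed for the BBSome and the transition zone, which serve all cilia. In CF distal lung 2 of 28 rose and 4 fell from day 120 to term, among them ARL3 (1.46) and BBS1 (-1.35) on the log2 scale by edgeR. Of all genes 11.5% rose and 11.4% fell in that interval, so these counts show no change particular to this list. The median of the intraflagellar transport genes was 0.05.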
